A study of Mus musculus with 4 samples.

Results

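The genes described here are 10 secreted signalling proteins of inflammation and tissue repair: the interleukin-1 (IL-1) family members Il1a, Il1b, Il1rn, Il18 and Il33, the tumor necrosis factor gene Tnf, the interleukins Il6 and Il10, the growth factor Tgfb1 and the macrophage growth factor Csf1. They were chosen by name, as the non-chemokine cytokines and cytokine antagonists of a list, and not by their values. All 10 were found among 32300 genes or transcripts on the array, with 12 of 41170 probes and 75 spots.

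Tumors and tumor-free lung tissue were taken from female ICR mice of 6 months of age, which were either Nrf2+/+ or Nrf2-/-. Nrf2-/- mice lack the transcription factor gene Nrf2 (Nfe2l2), a regulator of antioxidant and detoxification genes. All 4 groups, non-tumor lung included, came from animals injected intraperitoneally with urethane, a lung carcinogen, at 1 g/kg, with tissue taken 16 weeks later. The tumors were surface lesions of 1.0 to 1.5 mm freed of surrounding tissue, and each group was 1 pool of tissue from 8 mice read on 1 array. Lung not exposed to urethane was not analysed here. Without replicate pools, a difference between 2 arrays has no test, and it describes those pools only.

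Of the 4 arrays, that of Nrf2+/+ non-tumor lung was on slide 1 and the other 3 were together on slide 2. The slide and the Nrf2+/+ non-tumor group therefore cannot be told apart, which touches the tumor comparison in Nrf2+/+ mice and the genotype comparison in non-tumor lung. The tumor comparison in Nrf2-/- mice and the genotype comparison in tumors lay within the shared slide. Between 54.2% and 63.5% of spots were well above background per array, and no spot was saturated. Nfe2l2 had signals of 7913 and 7478 in the Nrf2+/+ non-tumor and tumor pools and was not well above background in either Nrf2-/- pool, as the genotype labels say.

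IL-1alpha and IL-1beta act on the same receptor and start inflammatory gene expression through MyD88 and NF-kB, and the protein of Il1rn occupies that receptor without signalling. IL-18 and IL-33 belong to the same family but use receptors of their own; IL-1beta and IL-18 are made as precursors cut by caspase-1, whereas IL-33 is stored in nuclei and released from damaged cells, in mouse lung chiefly from alveolar type 2 cells. Tnf comes largely from activated macrophages and T cells, Csf1 maintains macrophages, Tgfb1 is secreted in a latent form, and Il10 restrains inflammation. RNA levels do not report how much of these proteins was processed, released or activated.

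Promoter windows, the 250 bases before each start site, were available from RefSeq (build GRCm38.p6) for 9 of the 10 genes. There was no entry for Il10. The 5 windows below belong to the genes on which the comparisons turned. Capitals mark matches to 3 motifs searched on both strands: the core of the antioxidant response element bound by Nrf2 (TGACNNNGC), the AP-1 site (TGANTCA) and the NF-kB consensus.
Il33: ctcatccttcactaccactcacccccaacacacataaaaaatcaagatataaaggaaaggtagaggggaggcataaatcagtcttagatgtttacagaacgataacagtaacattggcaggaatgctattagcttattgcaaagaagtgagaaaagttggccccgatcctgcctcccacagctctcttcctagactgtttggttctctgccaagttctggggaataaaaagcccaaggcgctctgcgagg
Il1rn: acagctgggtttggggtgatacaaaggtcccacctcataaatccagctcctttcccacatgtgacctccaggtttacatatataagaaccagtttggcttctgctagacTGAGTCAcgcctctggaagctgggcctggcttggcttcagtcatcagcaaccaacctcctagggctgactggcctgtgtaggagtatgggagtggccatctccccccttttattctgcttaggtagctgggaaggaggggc
Csf1: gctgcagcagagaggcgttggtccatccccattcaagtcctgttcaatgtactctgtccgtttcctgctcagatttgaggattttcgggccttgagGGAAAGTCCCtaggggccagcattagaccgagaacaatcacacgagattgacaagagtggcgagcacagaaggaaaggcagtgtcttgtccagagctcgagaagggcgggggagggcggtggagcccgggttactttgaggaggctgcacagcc
Il1b: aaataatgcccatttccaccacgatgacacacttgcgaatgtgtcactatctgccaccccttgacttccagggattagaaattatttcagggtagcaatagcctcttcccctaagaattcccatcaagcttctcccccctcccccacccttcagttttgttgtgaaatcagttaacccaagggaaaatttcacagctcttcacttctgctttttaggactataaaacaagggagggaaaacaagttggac
Tnf: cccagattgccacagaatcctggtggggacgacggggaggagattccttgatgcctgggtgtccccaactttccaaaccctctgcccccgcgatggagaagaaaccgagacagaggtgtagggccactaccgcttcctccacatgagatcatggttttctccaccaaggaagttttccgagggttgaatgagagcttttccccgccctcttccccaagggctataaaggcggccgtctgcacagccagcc
They lie at chr19:29924863-29925112 for Il33 and chr2:24336610-24336859 for Il1rn, both on the plus strand, and on the minus strand at chr3:107760470-107760719 for Csf1, chr2:129371140-129371389 for Il1b and chr17:35202008-35202257 for Tnf. RefSeq gives 2 starts for Il33 and 3 for Il1rn, and the first is shown. The antioxidant response element core was in the window of 0 of the 9 genes and in 10.2% of 32851 promoter windows of the same length. The AP-1 letters occurred in 3 of the 9 genes (Il1a, Il1rn and Il6) and in 6.75% of all windows. The NF-kB consensus occurred in 2 (Csf1, on the minus strand at -154 to -145 from the start, and Il6) and in 3.9% of all windows. A match is not evidence of binding, and the lack of one says only that these letters are not in this window.

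Levels are given as the log2 of the processed signal over the array's 75th percentile, so that 0 is the signal of a spot brighter than 75% of spots, and differences are differences of these levels. The probes of Il1b, Il6, Il10, Il18, Tnf, Tgfb1 and Csf1 were printed on 10 spots per array; the SD given for them is over those spots and covers measurement on 1 array, not the spread between animals. The other genes were read on 1 spot per probe. For bright probes the error that the scanner software gives amounts to about 0.20 per difference. Levels of different genes are not compared, since probes differ in brightness. In these bulk pools, fewer cells of a type and less RNA per cell cannot be told apart.

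Il33, Il1rn and Csf1 were the members that passed the test between tumor and non-tumor lung. Il33 and Il1rn rose in tumors and Csf1 fell, in both genotypes. The fit, made with limma on tissue plus genotype over 4 arrays, had 1 residual degree of freedom and called 18.0% of 18924 genes between tissues at an adjusted p of 0.05, with 6.62% higher and 11.4% lower in tumor. Of 8 members tested, 2 were called higher and 1 lower, and 4 had an unadjusted p under that threshold against 36.4% of all genes. The fit takes the 2 genotypes as repeats of the tissue comparison, and the 2 tissues as repeats of the genotype comparison. Its residual is the difference between the genotypes' tumor differences, so its p-values do not measure spread between pools or mice. That difference enters the error of Il1b and Tnf, with SEs of 0.35 and 0.30.

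Il33 had a level of 2.12 in Nrf2+/+ non-tumor lung, 2.81 in Nrf2-/- non-tumor lung, 3.26 in Nrf2+/+ tumor and 4.51 in Nrf2-/- tumor, from signals of 3299, 5194, 5314 and 13298. Both tumors were above both non-tumor pools, and within each tissue the Nrf2-/- pool was above the Nrf2+/+ pool. The tumor difference was 1.14 in Nrf2+/+ and 1.70 in Nrf2-/- mice, and the genotype difference was 0.69 in non-tumor lung and 1.25 in tumor. The fitted tissue effect was 1.42 with an SE of 0.21, higher in both of 2 genotypes (limma, adjusted p = 0.0239), and it was not called without the filter on dim genes (adjusted p = 0.0647) or without scaling (0.052), over a range from 1.03e-05. The fitted genotype effect of 0.97 with an SE of 0.21, in the same direction in both tissues, missed the threshold (limma, adjusted p = 0.211) and passed it with median scaling (0.00803).

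The receptor of IL-33, ST2 (Il1rl1), is carried by group 2 innate lymphoid cells, regulatory T cells and mast cells. Its signals were 203 in Nrf2+/+ non-tumor lung, 377 in Nrf2-/- non-tumor lung, 110.1 in Nrf2+/+ tumor and 167 in Nrf2-/- tumor. After scaling, tumor was below non-tumor lung of the same genotype, opposite to the ligand, with differences of -0.43 in Nrf2+/+ and -0.83 in Nrf2-/- mice that did not pass the test (limma, adjusted p = 0.0897). Within arrays, where scaling cancels, the ratio of Il33 to Il1rl1 was higher in tumor by 1.57 in Nrf2+/+ and 2.53 in Nrf2-/- mice on the log2 scale; this pair was chosen after its values were seen. The 6 alveolar type 2 markers, all well above background on all 4 arrays, had summed signals, in units of the array's 75th percentile, of 427 and 508 in the Nrf2+/+ and Nrf2-/- non-tumor pools and 728 and 773 in the tumors. Sftpc gave between 59% and 78% of these sums. By gene, 6 of 6 were higher in tumor in each genotype. Between genotypes, 6 of 6 were higher in Nrf2-/- than in Nrf2+/+ non-tumor lung (median 0.31) and 3 of 6 in tumor (median 0.02). Mast cell markers summed to 0.772, 0.690, 0.242 and 0.316 in the same order of arrays, with Cpa3 and Tpsb2 dim on all arrays and Mcpt4 and Fcer1a in the tumors. Their part in the Il33 and Il1rl1 values was not tested.

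Il1rn had a level of -1.09 in Nrf2+/+ non-tumor lung, -1.23 in Nrf2-/- non-tumor lung, -0.08 in Nrf2+/+ tumor and 0.20 in Nrf2-/- tumor. Both tumors stood above both non-tumor pools. Tumor exceeded non-tumor lung by 1.01 in Nrf2+/+ and 1.43 in Nrf2-/- mice, and the fitted tissue effect was 1.22 with an SE of 0.19, higher in both of 2 genotypes (limma, adjusted p = 0.0258). That call was lost without the filter on dim genes (adjusted p = 0.0702) and without scaling (0.0595), over a range from 5.40e-05. The genotype differences, -0.14 in non-tumor lung and 0.28 in tumor, stood beside a software error of about 0.21, and the first changed sign in 1 of 6 alternative settings. These values come from 1 of 2 probes; the other was below background on all 4 arrays, with signals between 4.7 and 6.4, and gave no reading.

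Csf1 had a level of 1.90 ± 0.04 in Nrf2+/+ non-tumor lung, 2.51 ± 0.09 in Nrf2-/- non-tumor lung, 0.60 ± 0.08 in Nrf2+/+ tumor and 1.43 ± 0.10 in Nrf2-/- tumor (SD over 10 spots). The spots of the 4 arrays did not overlap in any of the 4 comparisons: both tumors were below both non-tumor pools, and each Nrf2-/- pool was above its Nrf2+/+ counterpart. Between tumor and non-tumor lung the difference was -1.29 in Nrf2+/+ and -1.08 in Nrf2-/- mice, and the fitted tissue effect was -1.19 with an SE of 0.17, lower in both of 2 genotypes (limma, adjusted p = 0.0223). It was not called without the filter (adjusted p = 0.0653), over a range from 0.00207. The genotype differences were 0.61 in non-tumor lung and 0.82 in tumor, with a fitted effect of 0.72 and an SE of 0.17, higher in both of 2 tissues, that missed the threshold (limma, adjusted p = 0.228). No member was called between genotypes, where 0.38% of genes were called by limma at the adjusted threshold (0.159% higher and 0.222% lower); at an unadjusted p under it there were 2 of 8 members, Il33 and Csf1, against 12.0% of genes.

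Csf1 shares its receptor, Csf1r, with Il34. Il34 rose in tumors, with signals of 2250 and 2798 in the Nrf2+/+ and Nrf2-/- non-tumor pools and 5760 and 7158 in the tumors, differences of 1.81 in Nrf2+/+ and 1.70 in Nrf2-/- mice (limma, adjusted p = 0.0133). The 2 ligands thus moved in opposite directions in each genotype: within arrays the ratio of Il34 to Csf1 was 8.60-fold higher in tumor in Nrf2+/+ and 6.89-fold higher in Nrf2-/- mice, a pair chosen after its values were seen. Csf1r itself differed by -0.47 in Nrf2+/+ and 0.02 in Nrf2-/- tumors (limma, adjusted p = 0.462). Endothelial markers, 5 of 5 well above background on all 4 arrays, had summed signals of 122 and 154 in the Nrf2+/+ and Nrf2-/- non-tumor pools against 57.2 and 77.8 in the tumors. Mesothelial markers summed to 12.2 and 24.7 against 3.97 and 8.48, with Wt1 not well above background in Nrf2+/+ tumor, and fibroblast markers to 91.8 and 117 against 75.2 and 92.1. By gene, 5 of 5 endothelial and 5 of 5 mesothelial markers were lower in tumor in each genotype, as Csf1 was. Between genotypes the 5 mesothelial markers were all higher in Nrf2-/- pools in both tissues, as Csf1 was, where their medians were 1.28 (non-tumor) and 1.17 (tumor). Vwf gave between 65.6% and 78.4% of the endothelial sum and was the 1 of 5 endothelial markers higher in Nrf2-/- non-tumor lung; the median of the list was -0.29 there, opposite to Csf1, and 0.16 in tumor. Fibroblast markers were higher in Nrf2-/- pools in 3 of 5 (non-tumor) and 4 of 5 (tumor). The part of these lists in the Csf1 values was not tested.

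**Figure D1:**
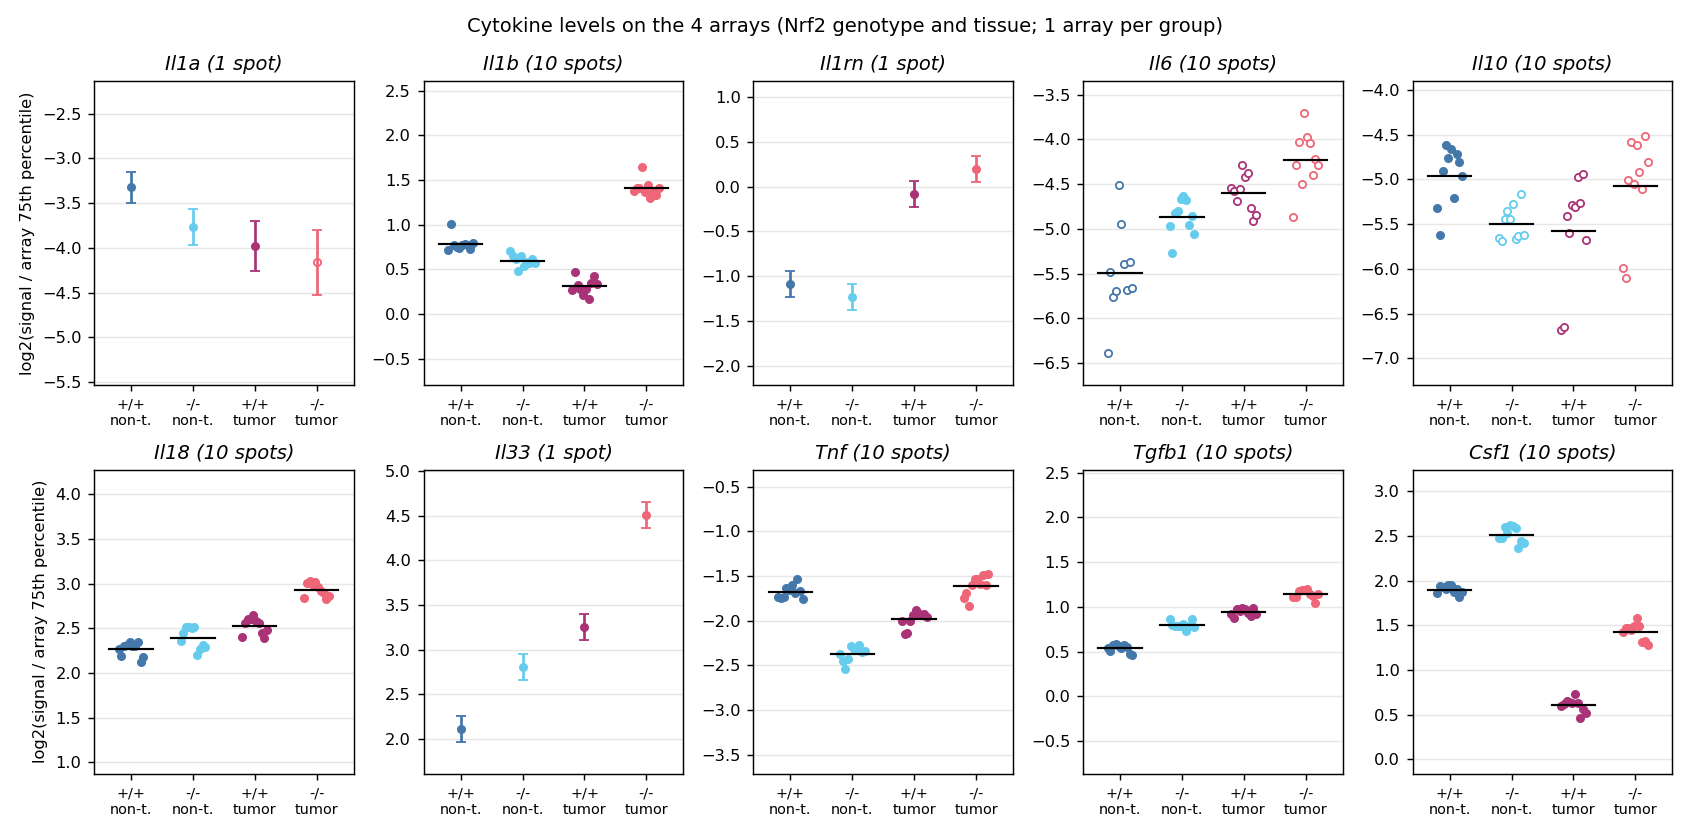
Level of each of the 10 cytokines on each of the 4 arrays (log2 of the signal over the array's 75th percentile), with 1 panel per gene; points are spots and black lines the mean of a probe's 10 spots, single spots carry the scanner software's error, and open points are not well above background as probes. Il33 lies between 2.12 and 4.51 with both tumors above both non-tumor pools, Csf1 lies between 0.60 and 2.51 with both tumors below, and Il1b is highest in Nrf2-/- tumor and lowest in Nrf2+/+ tumor.

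Il1b and Tnf differed between tumor and non-tumor lung in opposite directions in the 2 genotypes. Il1b had a level of 0.78 ± 0.08 in Nrf2+/+ non-tumor lung, 0.60 ± 0.06 in Nrf2-/- non-tumor lung, 0.31 ± 0.09 in Nrf2+/+ tumor and 1.41 ± 0.09 in Nrf2-/- tumor (SD over 10 spots). Spots did not overlap in any of the 4 comparisons; Nrf2-/- tumor was highest and Nrf2+/+ tumor lowest. The tumor difference was -0.47 in Nrf2+/+ and 0.81 in Nrf2-/- mice, so that the second exceeded the first by 1.28, and the genotype difference was -0.18 in non-tumor lung and 1.10 in tumor. The tumor genotype difference, a 2.14-fold higher level in Nrf2-/- tumor, lay within 1 slide and ranged from 0.98 to 1.17 over the alternative settings. The Nrf2+/+ tumor difference, across the slides, ranged from -0.93 to -0.18 over them, beside a software error of 0.20. As reported, it was matched or exceeded in size by 50.2% of genes.

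Tnf had a level of -1.68 ± 0.07 in Nrf2+/+ non-tumor lung, -2.37 ± 0.09 in Nrf2-/- non-tumor lung, -1.99 ± 0.09 in Nrf2+/+ tumor and -1.61 ± 0.11 in Nrf2-/- tumor (SD over 10 spots). Nrf2-/- non-tumor lung was the lowest pool and Nrf2-/- tumor and Nrf2+/+ non-tumor lung the highest. The tumor difference was -0.31 in Nrf2+/+ and 0.76 in Nrf2-/- mice, a difference of 1.07 between genotypes. The genotype difference was -0.69 in non-tumor lung and 0.38 in tumor. Spots did not overlap in any of these comparisons. Over the alternative settings the Nrf2+/+ tumor difference ranged from -0.76 to -0.02, beside a software error of 0.21. As reported, it was matched or exceeded in size by 65.0% of genes. No difference between the genotypes' tumor differences was tested, because each rests on a pair of single arrays and the additive fit has no term for it; its tissue effects were 0.17 for Il1b (limma, adjusted p = 0.754) and 0.22 for Tnf (limma, adjusted p = 0.625).

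Among 7 members above background on all 4 arrays, Il1b and Tnf were the 2 whose tumor differences differed between genotypes by more than 2-fold, where 4.32% of 16287 genes did so, 2.66% with the Nrf2-/- difference the higher and 1.65% with it the lower. Tnf fell below that mark in 3 of 6 alternative settings, with values from 0.78 to 1.18, and Il1b, at 1.13 to 1.39, in none. Macrophage markers, 9 of 9 well above background on all arrays, had summed signals of 44.8 in Nrf2+/+ non-tumor lung, 59.8 in Nrf2-/- non-tumor lung, 36.2 in Nrf2+/+ tumor and 57.7 in Nrf2-/- tumor. T and NK cell markers summed to 3.89, 5.99, 2.59 and 4.90 in the same order, with Cd4 dim on all arrays and Ncr1 in the tumors, dendritic cell markers to 2.14, 3.15, 1.72 and 2.94, with Cd209a dim in Nrf2+/+ and Flt3 in Nrf2-/- tumor, and neutrophil markers to 54.0, 45.4, 31.2 and 32.3, with Camp dim in the tumors. S100a9 gave between 86.7% and 90.1% of the neutrophil sum. By gene, neutrophil markers were lower in Nrf2-/- than in Nrf2+/+ non-tumor lung in 7 of 8 (median -0.38) and higher in Nrf2-/- than in Nrf2+/+ tumor in 6 of 7 (median 0.16), the directions of Il1b and Tnf. Against non-tumor lung, 1 of 8 neutrophil markers was higher in Nrf2+/+ tumor (median -0.86). In Nrf2-/- tumor 4 of 8 were higher (median -0.17), whereas Il1b and Tnf were both higher there. The neutrophil markers' tumor differences were higher in Nrf2-/- mice by a median of 0.72 over the 7 measured, 6 of them above 0. Cxcr2, Retnlg and Csf3r passed 2-fold at 2.18, 1.36 and 1.14, where 2.66% of all genes did so upward. S100a8, S100a9, Ngp and Mmp8 had 0.17, 0.23, 0.72 and -0.45. Macrophage markers were higher in Nrf2-/- tumor than in Nrf2+/+ tumor in 9 of 9 (median 0.53), T and NK cell markers in 5 of 5 (0.86) and dendritic cell markers in 5 of 6 (0.59). In non-tumor lung the medians of these 3 lists were 0.12, 0.46 and 0.34, opposite in sign to Il1b and Tnf. The macrophage median for tumor in Nrf2+/+ mice was 0.31 although the sum was lower there. The part of these lists in the Il1b and Tnf values was not tested.

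The antagonist Il1rn and the agonist Il1b differed in opposite directions for tumor in Nrf2+/+ mice alone (1.01 and -0.47), across the slides. Their signs were alike for tumor in Nrf2-/- mice (1.43 and 0.81). They were also alike for genotype in non-tumor lung (-0.14 and -0.18) and in tumor (0.28 and 1.10). Within arrays, the ratio of Il1rn to Il1b was higher in tumor by 1.48 in Nrf2+/+ and by 0.62 in Nrf2-/- mice, on the log2 scale, and differed by -0.81 between Nrf2-/- and Nrf2+/+ tumor; the pair was chosen after its values were seen. Il1r2, a decoy that binds IL-1 without signalling, had signals of 78.1 and 107.3 in the Nrf2+/+ and Nrf2-/- non-tumor pools and of 68.2 and 262.5 in the tumors. It was highest in Nrf2-/- tumor, as was Il1b, with differences of 1.64 from Nrf2-/- non-tumor lung and 1.87 from Nrf2+/+ tumor. The signalling receptor Il1r1 and its partner Il1rap differed by between -0.36 and 0.28 over the 4 comparisons.

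Il1a was dim. Its better probe had signals of 76.0 and 54.6 in the Nrf2+/+ and Nrf2-/- non-tumor pools, 35.2 in Nrf2+/+ tumor, and 32.6 in Nrf2-/- tumor, where it was not well above background; the other probe was below background on all arrays. It differed between tumor and non-tumor lung by -0.66 in Nrf2+/+ mice, with a software error of 0.33. In Nrf2-/- mice the difference was -0.40, or 1.32-fold lower in tumor, with a software error of 0.41. At-least folds set the dim side at the lowest signal still well above background on its array, or at its own value if that is higher. Here its own value was used, so that 1.32-fold is no lower bound. The fitted tissue effect of -0.53, lower in both of 2 genotypes, missed the threshold (limma, adjusted p = 0.107) and passed it with spike-in scaling (0.0267) and without scaling (0.0407), and the Nrf2-/- difference changed sign in 2 of 6 alternative settings.

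Il18, the IL-1 family member matured by caspase-1 alongside Il1b, had a level of 2.27 ± 0.08 in Nrf2+/+ non-tumor lung, 2.39 ± 0.12 in Nrf2-/- non-tumor lung, 2.53 ± 0.09 in Nrf2+/+ tumor and 2.93 ± 0.07 in Nrf2-/- tumor (SD over 10 spots). The 2 non-tumor pools overlapped, and Nrf2-/- tumor was above the other 3. The tumor difference was 0.26 in Nrf2+/+ mice, where it changed sign without scaling, and 0.54 in Nrf2-/- mice, and the fitted tissue effect of 0.40 missed the threshold (limma, adjusted p = 0.178). Its soluble inhibitor Il18bp had signals of 1664 in Nrf2+/+ non-tumor lung, 877 in Nrf2-/- non-tumor lung, 627 in Nrf2+/+ tumor and 998 in Nrf2-/- tumor. Il18bp thus differed by -0.95 between tumor and non-tumor lung in Nrf2+/+ and by 0.53 in Nrf2-/- mice, opposite signs as for Il1b and Tnf. Within arrays, the ratio of Il18 to Il18bp, a pair chosen after its values were seen, was higher in tumor by 1.22 in Nrf2+/+ mice and by 0.01 in Nrf2-/- mice. Of the receptor chains, Il18rap rose in tumors, by 0.78 in Nrf2+/+ and 1.68 in Nrf2-/- mice (limma, adjusted p = 0.0481), whereas Il18r1 differed by 0.18 and -0.02.

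Il6 and Il10 were near background. Il6 had mean signals of 17.9 ± 6.7 and 25.6 ± 3.4 in the Nrf2+/+ and Nrf2-/- non-tumor pools and of 23.1 ± 3.3 and 31.8 ± 6.9 in the tumors (SD over 10 spots), with 2, 6, 3 and 4 of the 10 spots well above background. Il10 had mean signals of 25.0 ± 5.1, 16.6 ± 2.2, 12.5 ± 4.3 and 18.5 ± 5.9 in the same order, with 6, 1, 0 and 0 such spots. Spots of the arrays overlapped in all 4 comparisons for both genes. A probe counted as above background with at least 5 of its 10 spots, so that Il6 was measured in Nrf2-/- non-tumor lung and Il10 in Nrf2+/+ non-tumor lung alone. From the probe means, Il6 was at least 1.19-fold higher in Nrf2-/- than in Nrf2+/+ non-tumor lung and Il10 at least 1.16-fold lower, bounds that lie within the overlap of the spots.

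Tgfb1 had a level of 0.54 ± 0.04 in Nrf2+/+ non-tumor lung, 0.80 ± 0.04 in Nrf2-/- non-tumor lung, 0.94 ± 0.04 in Nrf2+/+ tumor and 1.14 ± 0.05 in Nrf2-/- tumor (SD over 10 spots). The spots of each array were apart from those of the next, but the steps were small, 0.40 and 0.35 for tumor and 0.26 and 0.20 for genotype. The fitted tissue effect of 0.37, higher in both of 2 genotypes, missed the threshold (limma, adjusted p = 0.175), and the Nrf2+/+ tumor difference changed sign without scaling. Spots of 1 array are so alike that spot separation is common: of 189 probes on 10 spots, 78.3% did not overlap in the tumor comparison in Nrf2+/+ mice, against 5 of 6 members, and 64.9% in Nrf2-/- mice, against 5 of 6. The shares were 42.9% for genotype in non-tumor lung, against 4 of 7 members, and 54.9% in tumor, against 5 of 5.

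The counts of members past 2-fold were set against all genes. In Nrf2+/+ mice 2 of 9 measured members (Il1rn and Il33) were over 2-fold higher in tumor and 1 (Csf1) over 2-fold lower, where 8.08% of 19913 genes were higher and 15.3% lower, 23.4% in all. In Nrf2-/- mice the same 3 genes passed that mark in the same directions, with 5.43% of 19426 genes higher and 9.13% lower, 14.6% in all. Between genotypes in non-tumor lung 0 of 10 members passed it, where 7.65% of 20190 genes did, 3.04% higher and 4.61% lower. In tumors 2 of 8 members (Il1b and Il33) were higher in Nrf2-/- pools and 0 lower, where 4.29% of 17824 genes were higher and 3.67% lower, 7.96% in all. The median difference of the members was -0.31 for tumor in Nrf2+/+ and 0.64 in Nrf2-/- mice, with -0.03 over all genes in each, and -0.01 for genotype in non-tumor lung and 0.39 in tumor, with 0.02 and -0.03 over all genes.

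**Figure D2:**
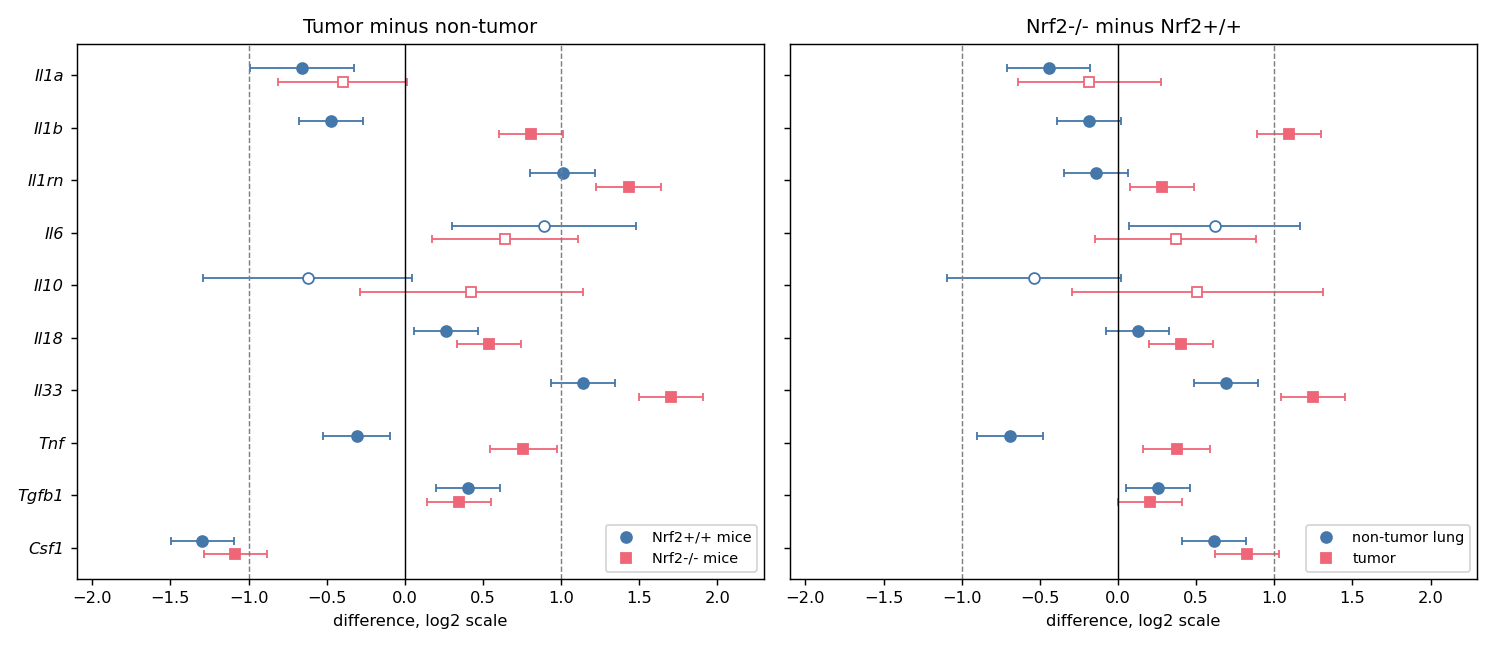
Difference of each cytokine in the 4 comparisons, log2, with bars for the scanner software's error and open points where a pool was not well above background; dashed lines mark 2-fold. Il33 and Il1rn lie beyond the upper line and Csf1 beyond the lower in both tumor comparisons, and in the genotype comparison of tumors Il33 (1.25) and Il1b (1.10) do.

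**Figure D3:**
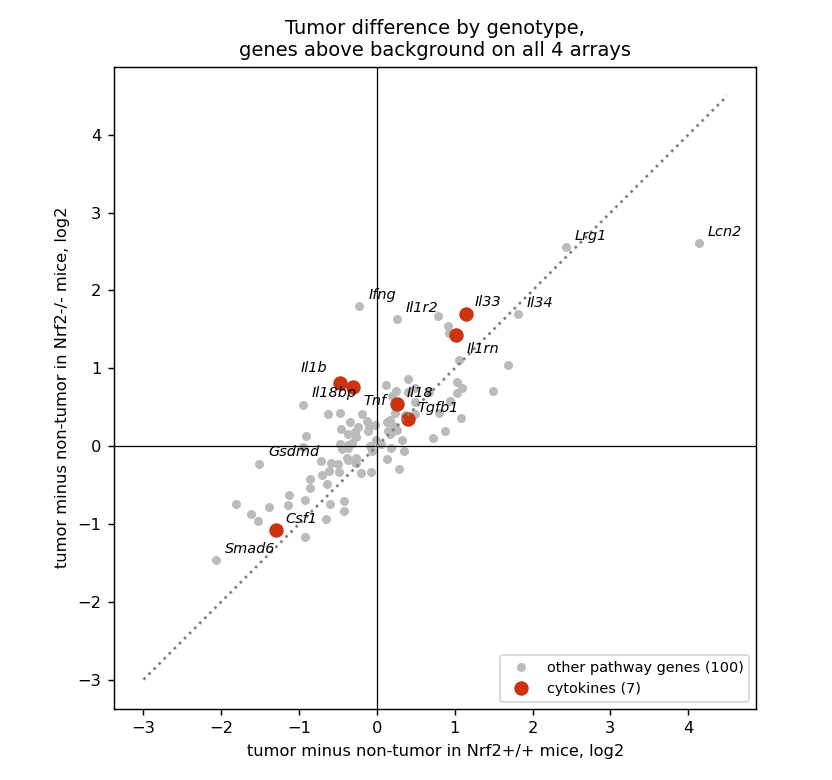
Tumor minus non-tumor difference, log2, in Nrf2+/+ mice (x axis) against Nrf2-/- mice (y axis) for the 7 cytokines (red) and 100 other pathway genes (grey) above background on all 4 arrays; the dotted line marks equal differences. Il1b (-0.47 and 0.81) and Tnf (-0.31 and 0.76) lie left of 0 and above 0, as does Il18bp (-0.95 and 0.53). Il33 (1.14 and 1.70), Il1rn (1.01 and 1.43) and Csf1 (-1.29 and -1.08) each have the same sign in both genotypes.

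The other genes of these pathways were described from 10 lists with 137 of 144 names found on the array. Together 12 of 108 tested rose and 12 fell in tumors, where limma called 6.62% of all genes higher and 11.4% lower. Between genotypes limma called 0 of 108, against 0.38% of all genes, and 23 had an unadjusted p under 0.05, against 12.0%. Past 2-fold, 11 were higher and 13 lower of 108 measured in Nrf2+/+ mice (8.08% and 15.3% of all genes), and 11 were higher and 4 lower of 108 in Nrf2-/- mice (5.43% and 9.13%). Between genotypes 6 were higher and 2 lower of 109 in non-tumor lung (3.04% and 4.61%), and 10 were higher and 0 lower of 104 in tumors (4.29% and 3.67%). Their median was 0.32 in that last comparison, with -0.03 over all genes.

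Genes induced through IL-6 family cytokines and Stat3 had the most members called higher in tumor among the 10 lists, 4 of 9, with none lower. Of all genes, limma called 6.62% higher and 11.4% lower, and the lists were chosen with earlier results of these data known. Lrg1, a secreted glycoprotein, rose by 2.43 in Nrf2+/+ and 2.56 in Nrf2-/- mice (limma, adjusted p = 0.0111), and Lcn2, an iron-withholding protein of epithelium and neutrophils, rose by 4.13 and 2.61 (limma, adjusted p = 0.0174). Socs3, the feedback inhibitor of the pathway, rose by 0.91 and 1.55 and Saa3, an acute-phase protein, by 1.69 and 1.04. Saa3 was also higher in Nrf2-/- pools, by 2.53 in non-tumor lung and 1.89 in tumor, without a call (limma, adjusted p = 0.0699). The ligand Il6 was near background throughout, as above. Of its receptor chains, the shared subunit Il6st fell by 1.14 in Nrf2+/+ and 0.76 in Nrf2-/- tumors (limma, adjusted p = 0.0374), and Il6ra differed by -1.82 and -0.74 without a call (limma, adjusted p = 0.0574).

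For Tgfb1, the signalling receptor Tgfbr1 rose by 1.06 in Nrf2+/+ and 1.10 in Nrf2-/- tumors (limma, adjusted p = 0.0242). The co-receptor Tgfbr3 fell, by at least 2.35-fold in Nrf2+/+ and at least 1.45-fold in Nrf2-/- mice, with both tumors not well above background (limma, adjusted p = 0.0238). Ltbp1, which tethers latent Tgfb1 in the matrix, fell by 1.62 and 0.87 (limma, adjusted p = 0.037). Among 10 genes induced by Tgfb signalling, limma called 3 higher and 1 lower in tumor, against 6.62% and 11.4% of all genes. The tumor difference was above 0 for 6 of the 10 in each genotype. Tgif1 and Pmepa1 rose, by 1.03 and 1.02 in Nrf2+/+ mice and by 0.83 and 0.68 in Nrf2-/- mice. The inhibitory Smad6 fell, with differences of -2.07 in Nrf2+/+ and -1.47 in Nrf2-/- mice.

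Among genes for cytokine maturation and release, Casp1 differed by -0.38 in Nrf2+/+ and 0.01 in Nrf2-/- tumors. Gsdmd, the pore protein through which IL-1beta leaves cells, had signals of 2724 in Nrf2+/+ non-tumor lung, 3383 in Nrf2-/- non-tumor lung, 696.7 in Nrf2+/+ tumor and 2278 in Nrf2-/- tumor. Nrf2+/+ tumor was far below the other 3 pools, with a difference of 1.64 between genotypes in tumors. Of 16 adaptor and signalling proteins, 0 passed 2-fold in any of the 4 comparisons. Of the NF-kB factors and induced feedback genes, 0 passed it in the tumor comparison of Nrf2+/+ mice (15 measured) or of Nrf2-/- mice (16). The inducible regulator Nfkbiz was the 1 member of the list called between tissues, and fell by 0.92 in Nrf2+/+ and 0.70 in Nrf2-/- tumors (limma, adjusted p = 0.0433). Between genotypes, 14 of 16 were higher in Nrf2-/- non-tumor lung (median 0.29) and 16 of 16 in Nrf2-/- tumor (0.43). Of all genes, 52.1% and 46.3% were higher there. Over 2-fold higher by measured signal were 1 of 16 and 2 of 16, against 3.04% and 4.29% of all genes. These were Ptgs2, an inducible prostaglandin synthase, in both tissues and Nfkbie, an NF-kB inhibitor, higher by 1.46 in tumor. Ptgs2 was not well above background in either Nrf2+/+ pool. It was at least 1.45-fold higher in tumor. In non-tumor lung it was 2.32-fold higher, with the dim pool's own value used, so that 2.32-fold is no lower bound.

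Among 18 other colony-stimulating, IL-6 family and Tnf family ligands, limma called 2 higher and 5 lower in tumor. Of all genes it called 6.62% higher and 11.4% lower. The fitted tissue effect was above 0 for 9 of the 18. Tnfsf9, a costimulatory ligand of T cells, rose in tumors: it was at least 11.1-fold higher in Nrf2+/+ mice, where non-tumor lung was not well above background, and higher by 3.69 on the log2 scale in Nrf2-/- mice (limma, adjusted p = 0.011). Tslp, an epithelial cytokine of type 2 immunity, fell in tumors (limma, adjusted p = 0.0196), by 1.37 in Nrf2+/+ mice. In Nrf2-/- mice it was 2.28-fold lower in tumor, where it was not well above background. Its own value was used there, so that 2.28-fold is no lower bound. Ifng, the macrophage-activating product of T and NK cells, had signals of 155 and 128 in the Nrf2+/+ and Nrf2-/- non-tumor pools, 96.7 in Nrf2+/+ tumor and 349.9 in Nrf2-/- tumor. It was thus highest in Nrf2-/- tumor, as Il1b was, by 1.80 over Nrf2-/- non-tumor lung and 1.78 over Nrf2+/+ tumor, without a call for tissue (limma, adjusted p = 0.33). Il3 was well above background in Nrf2+/+ non-tumor lung alone, the array on the other slide, with a signal of 87.1 on 1 array.

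**Figure D4:**
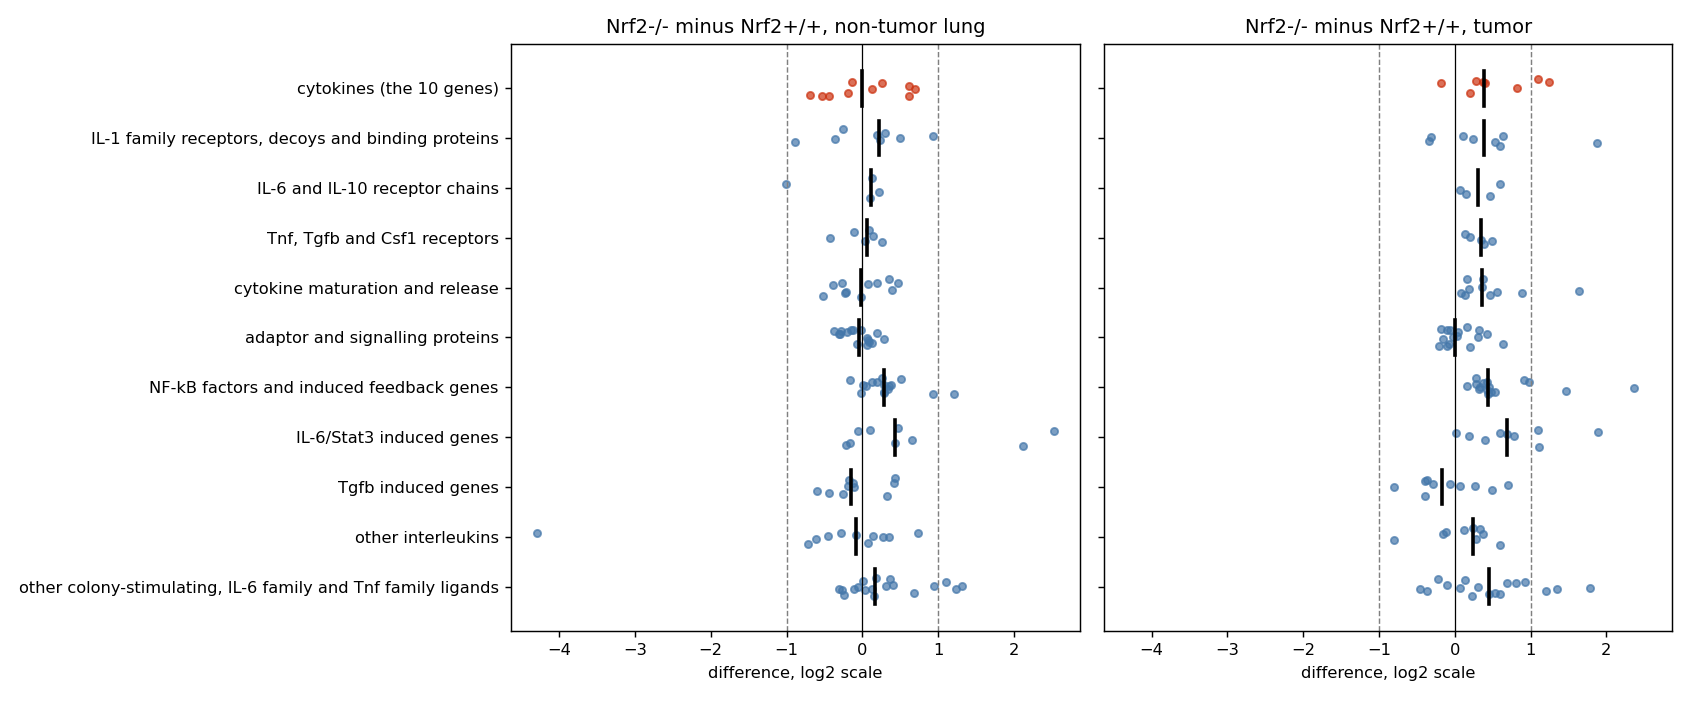
Difference between Nrf2-/- and Nrf2+/+ pools, log2, for the 10 cytokines (red) and the measured genes of the 10 pathway lists (blue), in non-tumor lung (left) and tumor (right); black bars are list medians and dashed lines mark 2-fold. Genes induced through IL-6 and Stat3 have medians of 0.43 and 0.69, and adaptor and signalling proteins stay within 2-fold.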

How the data were processed

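RNA pooled over 8 mice per group was labelled with Cy3 from 500 ng and hybridised to 4 Agilent whole-mouse-genome arrays (design 014868), per the labels' protocols and the file headers. The deposited values are spot intensity from Feature Extraction 10.7.3.1, background-subtracted and detrended but not normalized between arrays, per the file headers; the submitters' value table equalled these within 0.5%, so it was neither logged nor centred, with column medians of 79.2, 70.0, 47.2 and 50.1.

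From these, log2 intensity minus each array's 75th percentile (760, 742, 555 and 584 in the same group order) was taken and the spots of a probe averaged. Flags for non-uniform spots removed 4 of 41174 probes. Genes were named by accession through RefSeq (GRCm38.p6; the header names mm9, so no coordinates of probes are given): 26686 probes had a symbol and 14484 had none. Of a gene's probes the one with the highest mean level was used (6829 genes had over 1); the second probes of Il1a and Il1rn are described.

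Differences were counted at 2-fold among genes that exceeded background on 1 or more of the arrays compared. The single test was limma 3.58.1 (R 4.3.3), tissue plus genotype, eBayes with prior degrees of freedom 3.33, Benjamini-Hochberg adjustment over 18924 genes above background on at least 2 arrays, threshold 0.05, tested on simulated data. Other steps used Python 3.11.15 with pandas 2.3.3. The number of arrays limits the precision. Members, lists and tests were chosen with earlier results of these data known. Of each pathway list, up to 2 genes each way per comparison past 2-fold could be named; other list genes (receptors and partners of members, and genes called by limma) were named after their values were seen. A result for 1 gene of these lists is not reported here.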

Additional observations from a re-analysis of the deposited data

Results flagged for a closer look

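Il1b was lower in tumor than in non-tumor lung in Nrf2+/+ mice, by -0.47 on the log2 scale, and higher in Nrf2-/- mice, by 0.81. Tnf went the same way, with -0.31 in Nrf2+/+ and 0.76 in Nrf2-/- mice. In both cases the 10 spots of the arrays compared did not overlap in either genotype and pointed in opposite directions. Tnf also differed in opposite directions between genotypes, with -0.69 in non-tumor lung and 0.38 in tumor. None of these differences between groups was tested, since each side is 1 pair of arrays. In each case the first comparison crosses the slides and the second lies within the shared slide. With other processing the Nrf2+/+ tumor difference kept its sign but came as near to 0 as -0.18 for Il1b and -0.02 for Tnf.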

How the results depend on the processing

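Alternatives were median, quantile and spike-in scaling (8 probes), no scaling, normexp background (on the median signal, offset 50, chosen after seeing the files), the mean of a gene's probes, a 1.5-fold mark, and filters on dim genes. No member's called difference reversed. Of the members' differences, 220 values moved less than the software's error and 38 more. In Nrf2+/+ mice, members over 2-fold higher in tumor were 0 with spike-in scaling, without scaling and with normexp, and 1 with the mean of probes; lower were 3 without scaling and 3 at 1.5-fold. All genes higher there were 2633 with median scaling, 828 without scaling and 3348 at 1.5-fold (1608 as reported); lower were 5265 without scaling, 1172 with normexp, 5015 at 1.5-fold and 1646 above background on all 4 arrays (3053). In Nrf2-/- mice, 5 members were higher at 1.5-fold and 0 lower with median scaling; genes higher were 692 without scaling and 2143 at 1.5-fold (1055), and lower 2704 with spike-in scaling, 3019 without scaling, 526 with normexp, 3381 at 1.5-fold and 842 on all 4 arrays (1773). Between genotypes in non-tumor lung, 3 members were higher and 1 lower at 1.5-fold; genes higher were 203 with normexp, 1414 at 1.5-fold and 265 on all 4 arrays (614), and lower 252, 2050 and 281 (930). In tumor 1 member was higher with spike-in scaling; genes higher were 348, 1641 and 445 (764), and lower 239, 1415 and 295 (655). For the difference of tumor differences, 1 member passed with median scaling, spike-in scaling and normexp; genes higher were 212 with normexp and 1442 at 1.5-fold (434), and lower 456 with median scaling, 155 with normexp and 1145 at 1.5-fold (269). limma called 775 genes between tissues without the filter, 5867 with median and 5626 with spike-in scaling (3411), and between genotypes 150 on all 4 arrays, 1 without the filter, 1163 with median scaling, 486 with spike-in scaling, 0 without scaling and 126 with normexp (72). The cause was not tested. The median of all genes moved by 0.29 with median scaling and by -0.45 without scaling in the Nrf2+/+ tumor comparison, with 55.1% and 13.6% of the genes past 2-fold being higher, against 34.5%. No paired analysis was possible because each group has 1 array and the labels' numbers run across groups. The slide could not be fitted as a block, for want of residual degrees of freedom. Il6, Il10 and the Nrf2-/- tumor value of Il1a are limited by signal near background.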

Other observations

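The remaining marker lists are given as values, in the order Nrf2+/+ non-tumor, Nrf2-/- non-tumor, Nrf2+/+ tumor and Nrf2-/- tumor. B cell markers summed to 8.69, 6.10, 6.87 and 6.35 times the array's 75th percentile, with Pax5 dim on all arrays and Cd79a in Nrf2-/- tumor. In the same units, ciliated cell markers summed to 22.7, 19.3, 6.70 and 7.34, and cardiac muscle markers to 39.1, 48.3, 14.4 and 15.0. The sums of the last 2 lists were lower in both tumors than in both non-tumor pools. Tppp3 gave between 92.0% and 97.7% of the ciliated sum. Ccdc39 was dim in both tumors, and Dnah5 and Rsph1 in Nrf2-/- tumor. By gene, 3 of 4 measured ciliated markers were over 2-fold lower in Nrf2-/- than in Nrf2+/+ tumor (median -1.38), where 3.67% of all genes were. Tppp3 was higher there, by 0.19.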
